A study of Rattus norvegicus with 48 samples.

Results

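A set of 10 heat shock and chaperone genes was followed through 48 RNA-seq libraries from primary cultures of rat cortex. The 10 genes were Hspa1b, Hsph1, Dnajb1, Hspb1, Hspa8, Hsp90aa1, Hspa5, Hspd1, Bag3 and Hsf1. They were taken by symbol from a table of 30211 genes, and all 10 were found there and passed the filter on low values, as did 15890 genes in all. The cultures came from the cortex of fetuses of Sprague-Dawley rats at day 18 and were grown for 21 days in vitro. Each of 16 groups had 3 libraries. Control cultures were untreated, Cocaine cultures received 25 µM cocaine for 24 h, Tat cultures received 6 ng/mL of the HIV-1 transactivator protein for 48 h, and Tat-Cocaine cultures received both. Each of 4 compounds was given on its own, to Tat cultures and to Tat-Cocaine cultures, under the names X, Tat-X and Tat-Cocaine-X. The compounds were 4OI (4-octyl itaconate, an itaconate ester that enters cells) at 250 µM, Amlexanox (an inhibitor of the kinases TBK1 and IKKε) at 25 µM, Tazemetostat (an inhibitor of the histone methyltransferase EZH2) at 3 µM and Senicapoc (a blocker of the potassium channel KCa3.1) at 1 µM. The paper dissolved 4OI in DMSO, and no label names a group given DMSO alone, so that effects of 4OI and of its solvent cannot be told apart. Tat was added to the medium as a protein, so that no cell made it. Nothing in the labels says that the 3 libraries of a group came from separate rats, and the p-values measure the spread between these libraries, which may be technical.

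Heat shock proteins are chaperones that help other proteins to fold, keep unfolded chains from clumping and hand damaged ones to degradation. In the cytosol HSP70 proteins bind and release their clients in a cycle that J-domain proteins start and exchange factors end, and HSP90 takes over clients that are nearly folded. Chaperones of the endoplasmic reticulum (ER) and of mitochondria do the same work within those organelles. The factor HSF1 switches on the cytosolic set by binding heat shock elements, which are repeats of the letters GAA and their reverse complement TTC, whereas ER chaperones follow the unfolded protein response. Neurons are known to raise the inducible set less readily than glia do.

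Promoters are shown because the genes are known for these 2 kinds of control. RefSeq promoters of build GRCr8 were matched by symbol for 7 of the 10 genes, and not for Hspa1b, Hsp90aa1 and Hsf1. The 250 bases before the start are printed for Bag3 (chr1:192533210-192533459, plus strand), Hspd1 (chr9:64084038-64084287, minus strand), Dnajb1 (chr19:41431142-41431391, minus strand) and Hspa5 (chr3:38452766-38453015, plus strand), each on the strand of its gene, 5′ to 3′. Capitals mark matches to the motifs named after the sequences.
Bag3: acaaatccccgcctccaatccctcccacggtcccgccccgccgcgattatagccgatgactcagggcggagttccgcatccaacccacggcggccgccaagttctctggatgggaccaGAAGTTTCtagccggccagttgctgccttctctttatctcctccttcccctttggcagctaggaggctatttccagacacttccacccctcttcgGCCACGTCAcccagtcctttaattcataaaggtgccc
Hspd1: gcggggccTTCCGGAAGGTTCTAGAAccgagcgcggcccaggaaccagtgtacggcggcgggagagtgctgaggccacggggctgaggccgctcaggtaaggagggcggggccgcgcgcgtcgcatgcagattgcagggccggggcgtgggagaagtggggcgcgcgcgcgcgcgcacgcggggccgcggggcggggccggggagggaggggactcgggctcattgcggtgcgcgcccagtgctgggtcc
Dnajb1: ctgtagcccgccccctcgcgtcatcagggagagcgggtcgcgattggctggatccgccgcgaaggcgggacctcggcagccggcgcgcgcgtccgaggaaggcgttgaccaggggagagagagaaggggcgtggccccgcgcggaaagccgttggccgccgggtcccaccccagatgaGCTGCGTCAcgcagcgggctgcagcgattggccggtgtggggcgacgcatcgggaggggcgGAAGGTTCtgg
Hspa5: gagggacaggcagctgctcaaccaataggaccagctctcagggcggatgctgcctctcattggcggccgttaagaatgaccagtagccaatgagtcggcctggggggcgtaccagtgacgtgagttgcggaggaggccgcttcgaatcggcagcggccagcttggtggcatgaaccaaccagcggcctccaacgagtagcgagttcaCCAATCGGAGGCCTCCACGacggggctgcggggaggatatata
Motifs were searched on both strands. A heat shock element of 2 units (GAANNTTC or TTCNNGAA, which overlap where units repeat) stood before 6 of the 7 matched genes and in 13.5% of 33469 promoters of the same length. Hspa5 was the exception. The 3-unit form, GAANNTTC followed by NNGAA, which contains the shorter ones, stood before Hsph1, Hspa8 and Hspd1 and in 0.663% of promoters. The ER stress response element (CCAAT and CCACG with 9 bases between them), a site of the unfolded protein response, began 43 bases before the start of Hspa5, stood before none of the other 6 and was present in 0.0657% of promoters. The core of the antioxidant response element, TGACNNNGC, stood before Bag3 and Dnajb1 and in 10.1% of promoters. These are matches of letters, and binding was not measured.

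Values are CPM (reads per gene, which the authors scaled by library size with TMM factors). Fold changes are log2 differences of CPM + 0.5 with their SE, tested with limma in a fit to all 48 libraries. The paper states that only uniquely mapped reads were used, but only 85.0 to 87.3% of values above 0 were whole reads. How the fractions arose was not tested. A gene is called at a Benjamini-Hochberg FDR under 0.05 over all 15890 genes tested. Depth lay between 17.5 and 29.1 M reads per library (M, mega), and 0.5 CPM stood for 8.58 to 14.96 reads. The smallest p of an exact permutation test for 3 libraries against 3 is 0.1. The labels call the cells neurons, but the markers fixed for neurons (10 genes), astrocytes (8), microglia (8) and oligodendrocytes (6) were all present, and the cultures are read as mixed. The summed markers ranged over the libraries from 1082 to 4581 CPM for neurons, from 5787 to 14257 CPM for astrocytes and from 236.3 to 2663 CPM for microglia. Endothelial markers summed to at most 6.42 CPM. In Cocaine replicate 3 the oligodendrocyte markers summed to 25395 CPM, and the median library had 676 CPM. From the RNA of such cultures alone, fewer cells of a type and less RNA per cell cannot be told apart.

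**Figure D1:**
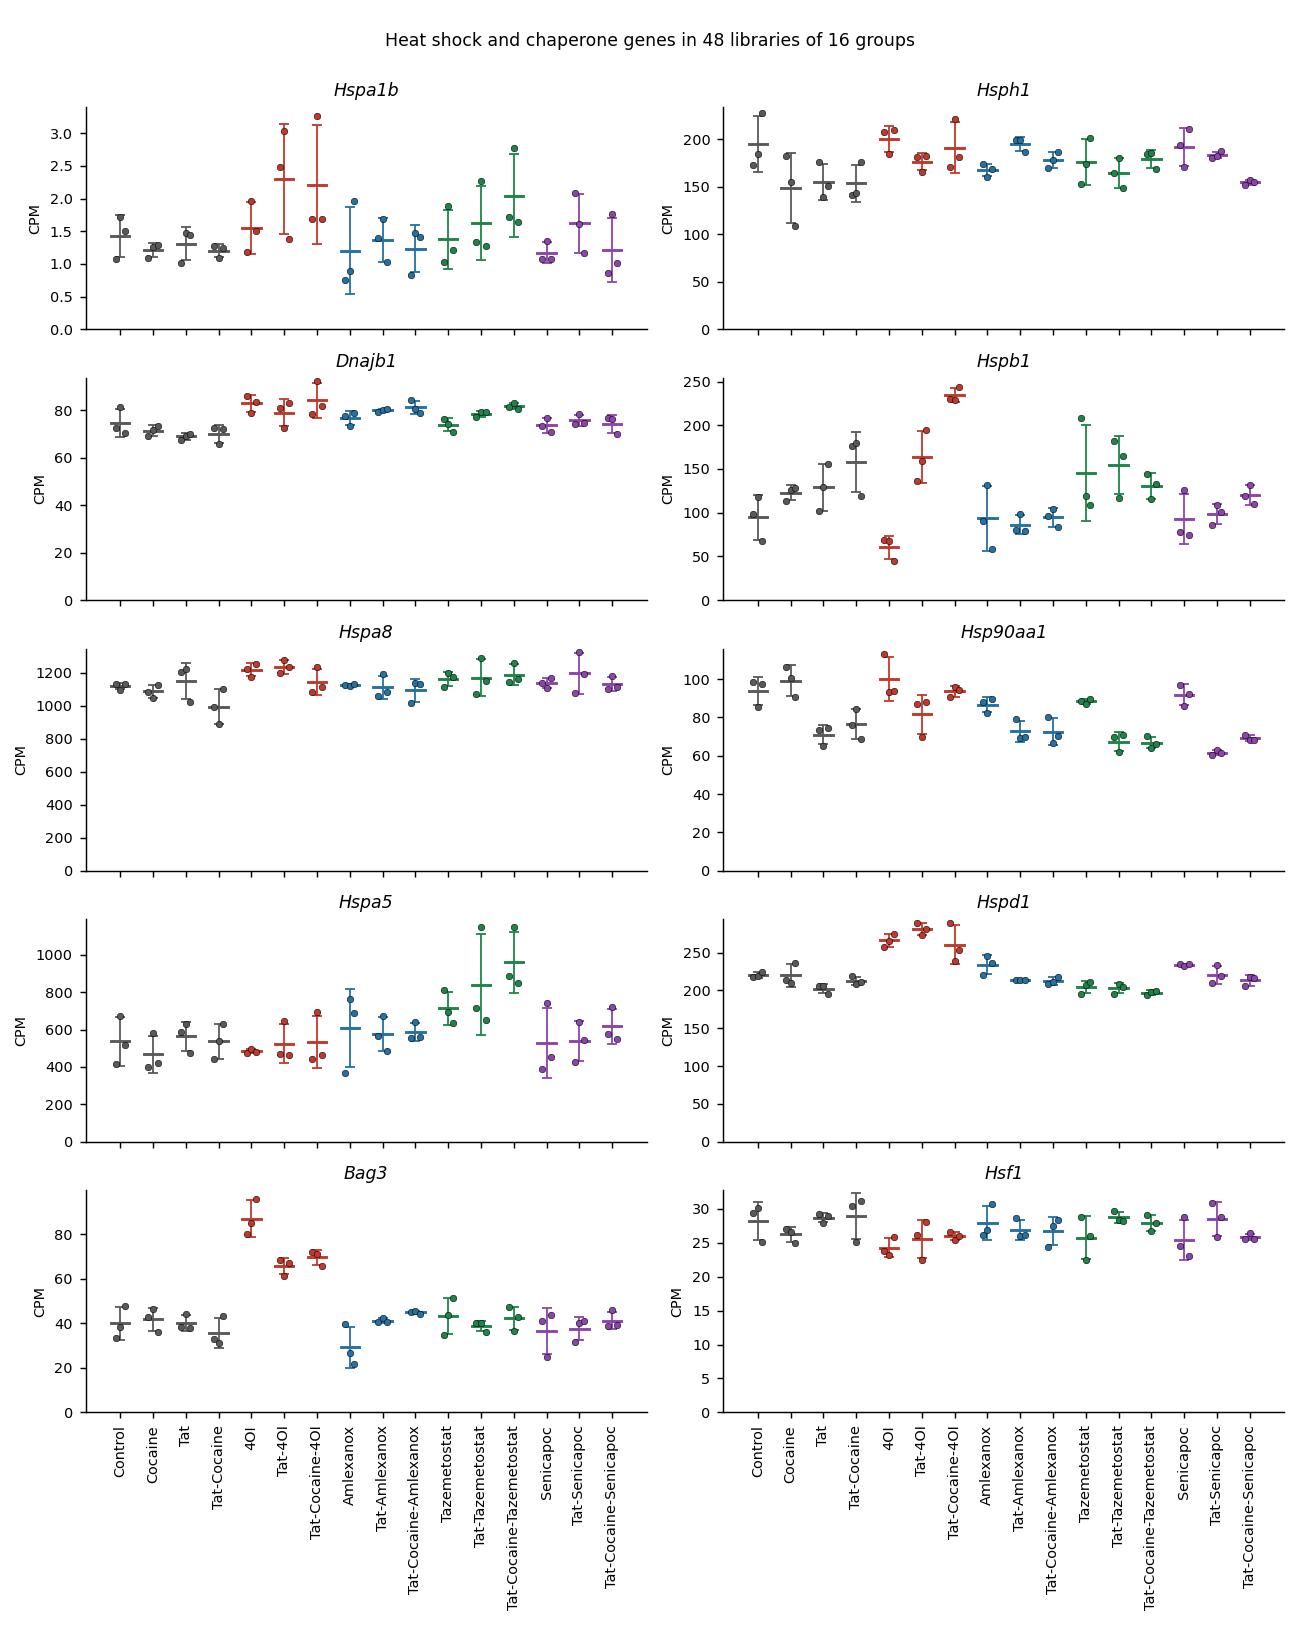
CPM of the 10 genes (vertical axes, each starting at 0) in the 16 groups. Points are libraries, bars the mean and whiskers the SD (n = 3), and colours mark the compound. Bag3 and Hspd1 are highest in the 3 groups with 4OI, Hspa5 in those with Tazemetostat, and Hsp90aa1 falls in most groups with Tat.

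Of the 10 genes, Bag3 and Hspd1 were those called higher with 4OI in each of Control, Tat and Tat-Cocaine cultures. Bag3 is an exchange factor of HSP70 that steers clients to autophagy. Hspd1 is the mitochondrial chaperonin HSP60. Bag3 stood at 33.5, 38.3 and 47.9 CPM in Control libraries and at 80.3, 84.9 and 96.0 CPM in 4OI libraries. It stood at 38.2, 44.3 and 38.01 CPM with Tat and at 68.2, 61.5 and 67.1 CPM with Tat-4OI. With Tat-Cocaine it stood at 32.7, 30.99 and 43.4 CPM and with Tat-Cocaine-4OI at 71.8, 71.2 and 65.9 CPM. In none of these 3 pairs of groups did a library with 4OI overlap one without it. Libraries did not overlap for 16.9, 34.9 and 20.6% of all genes in these pairs. The log2 fold change of Bag3 was 1.13 ± 0.18 (limma, FDR 4.62e-05), 0.70 ± 0.18 (FDR 0.00571) and 0.97 ± 0.18 (FDR 0.000346) in the 3 backgrounds. The differences between these effects were not called (Tat against Control, difference -0.42, 95% interval -0.93 to 0.08, FDR 0.49).

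Hspd1 rose by less than Bag3 in each background. Control libraries had 218, 219 and 225 CPM of Hspd1, and 4OI libraries 258, 266 and 275 CPM. Tat libraries had 206, 206 and 195 CPM of Hspd1 and Tat-4OI libraries 289, 273 and 281 CPM. Tat-Cocaine libraries had 219, 209 and 212 CPM, and Tat-Cocaine-4OI libraries 289, 239 and 253 CPM, again without overlap, as for 20.6% of all genes. The log2 fold change of Hspd1 was 0.27 ± 0.06 (limma, FDR 0.00277), 0.47 ± 0.06 (FDR 3.02e-07) and 0.28 ± 0.06 (FDR 0.00101). The first of these was lost in a fit to the 21 libraries of the 7 groups without the other compounds (FDR 0.0679), and in fits to the groups compared alone the first and the last were lost (FDR 0.212 and 0.262).

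Dnajb1, the J-domain protein that starts the HSP70 cycle, was called in both cultures with Tat. It stood at 67.5, 69.2 and 70.2 CPM with Tat and at 81.1, 72.7 and 83.2 CPM with Tat-4OI, a log2 fold change of 0.19 ± 0.06 (limma, FDR 0.0259). It stood at 72.5, 65.8 and 72.1 CPM with Tat-Cocaine and at 78.3, 92.4 and 82.0 CPM with Tat-Cocaine-4OI, a log2 fold change of 0.26 ± 0.06 (FDR 0.00535). The first of these calls was lost without Tat replicate 1 or 2 or Tat-4OI replicate 1 or 3 (FDR up to 0.143). The second was lost without Tat-Cocaine replicate 2 (FDR 0.0552) or Tat-Cocaine-4OI replicate 2 (FDR 0.0596). Both were also lost in the fit to 21 libraries (FDR 0.129 and 0.0732) and in fits to the groups compared alone (FDR 0.158 and 0.291). Hsp90aa1, the inducible cytosolic HSP90, was called in Tat-Cocaine-4OI against Tat-Cocaine (0.30 ± 0.09, FDR 0.0348). That call was lost without Tat-Cocaine replicate 1 or 3 or any replicate of Tat-Cocaine-4OI (FDR up to 0.154), and remained without Tat-Cocaine replicate 2. It was also lost with median-ratio scaling (FDR 0.0633) and quantile normalization (FDR 0.0602). The fit to 21 libraries (FDR 0.144) and that to the groups compared alone (FDR 0.25) lost it too.

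In all, 2 of 10 genes were called for 4OI against Control, both as rises, where 3.15% of all genes were called and 2.47% as rises. In Tat-4OI against Tat 3 of 10 were called, all as rises, beside 15.6% of all genes and 6.1% as rises. With 4OI in Tat-Cocaine cultures 4 of 10 were called, all as rises, beside 7.36% and 4.07% as rises. With 1 library left out, the share of all genes called lay between 1.38% (without 4OI replicate 3) and 3.17% in the first of these comparisons, between 6.47% (without Tat replicate 2) and 18.6% in the next and between 3.73% (without Tat-Cocaine-4OI replicate 3) and 6.9% in the last. In a mean over the 3 backgrounds, a contrast added after the values were seen, 7 of 10 genes were called, beside 22.8% of all genes, and 6 of them were rises, beside 11% of all genes. These 6 were Bag3, Hspd1, Dnajb1, Hsp90aa1, Hspa1b and Hspa8. Hsf1, the factor itself, fell by 0.17 on the log2 scale in that mean (SE 0.05, limma FDR 0.018). This call was lost without Tat-4OI replicate 2 (FDR 0.0512) and after quantile normalization (-0.15, FDR 0.0542). In the Control background alone Hsf1 was not called, at 28.2 ± 2.77 CPM (SD, n = 3) in Control and 24.3 ± 1.40 CPM in 4OI, with overlap and a log2 difference of -0.21 (FDR 0.318). Hspa8 rose by 0.14 ± 0.05 in that mean (FDR 0.0284), but by 0.00 after quantile normalization (FDR 0.961), and the call was lost without Control replicate 2, Tat replicate 3, Tat-Cocaine replicate 2, 4OI replicate 3, Tat-4OI replicate 2 or Tat-Cocaine-4OI replicate 2 (FDR up to 0.0826).

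Hspa1b, the inducible HSP70, stayed at 0.752 to 3.27 CPM in all libraries, which is 18 to 56.5 reads. Control libraries had 1.07, 1.72 and 1.498 CPM of Hspa1b, Tat-4OI libraries 2.49, 3.04 and 1.39 CPM and Tat-Cocaine-4OI libraries 1.68, 3.27 and 1.69 CPM. Its near-identical copy Hspa1a was not analysed here. Reads that fit both copies may have been dropped or shared, and some values of Hspa1b were fractions of a read, so that these levels are uncertain. Hspa8, Hsp90aa1 and Hspd1 have processed copies in the genome, and how far reads that fit those were dropped or shared was not tested. The rise of Hspa1b in the mean over the backgrounds was 0.43 ± 0.15 (limma, FDR 0.0348) and was lost without replicate 1 of Control or Tat, replicate 2 of Tat-Cocaine, replicate 2 or 3 of 4OI, replicate 1 or 2 of Tat-4OI or replicate 2 of Tat-Cocaine-4OI (FDR up to 0.0909).

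**Figure D2:**
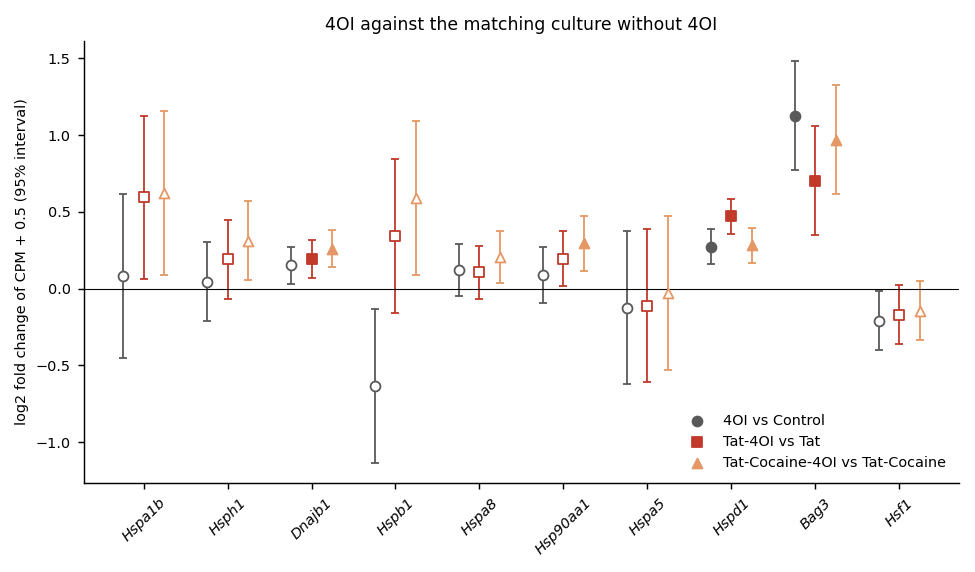
Log2 fold change of CPM + 0.5 with its 95% interval (vertical axis) for the 10 genes with 4OI in Control (circles), Tat (squares) and Tat-Cocaine cultures (triangles). Filled symbols passed FDR 0.05. Bag3 and Hspd1 are filled in all 3 backgrounds, and Hspb1 is the gene whose sign differs between Control and Tat cultures.

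Other chaperones were counted over 102 tested genes in 9 lists, which were written with earlier results known. In 4OI against Control 7 of the 102 were higher and 1 lower, where 2.47% of all genes were higher and 0.686% lower, and the 7 became 1 to 4 with any 1 library left out. In Tat-4OI against Tat 12 were higher and 7 lower, beside 6.1% and 9.48% of all genes. With 4OI in Tat-Cocaine cultures 8 were higher and 2 lower, beside 4.07% and 3.29%. The median log2 fold change of the 102 genes was 0.05, 0.03 and 0.05, and that of all genes lay within 0.01 of 0. Hspb8, the small heat shock protein that works with BAG3, was called in all 3 backgrounds (0.46, 0.52 and 0.90 on the log2 scale), but the first call was lost without Control replicate 1 or 2 or any replicate of 4OI (limma, FDR up to 0.091). Its level was 122 CPM in Control, 168 CPM in 4OI, 91.1 CPM in Tat and 131 CPM in Tat-4OI. Hsp90ab1, the constitutive HSP90, rose in both cultures with Tat, by 0.34 (limma, FDR 0.00603) and 0.48 (FDR 0.00026). Hspe1, the partner of HSP60, was not called in any of the 3 backgrounds, at 0.11, -0.03 and 0.01. Fkbp5, an HSP90 co-chaperone, fell by 0.52 in Tat-4OI and by 0.56 in Tat-Cocaine-4OI, of which the first was lost without Tat replicate 1 or Tat-4OI replicate 1 (FDR up to 0.0728) and the second without Tat-Cocaine replicate 3 (FDR 0.0528). The largest falls called in Tat-4OI against Tat were of chaperones of the ER. Sdf2l1, an ER co-chaperone, fell by 1.33 (limma, FDR 0.0319), from 27.7 to 10.8 CPM, and Calr (calreticulin), which folds glycoproteins, fell by 0.60 (FDR 0.0135), from 875 to 578 CPM. The fall of Sdf2l1 was lost without Tat replicate 1 or 2 or Tat-4OI replicate 1 or 3 (FDR up to 0.204), and that of Calr without Tat replicate 2 or Tat-4OI replicate 1 or 3 (FDR up to 0.0966). The 22 listed ER genes had a median of -0.21 in this comparison, with 2 higher and 2 lower. Among the higher was Dnajb9, which rose by 0.44 (limma, FDR 0.00433), from 44.7 CPM in Tat to 60.2 CPM in Tat-4OI.

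Summed microglial markers were 629 to 1083 CPM in Control and 437 to 1005 CPM in 4OI, 1019 to 1830 CPM in Tat and 371 to 911 CPM in Tat-4OI, and 650 to 1103 CPM in Tat-Cocaine and 236.3 to 919 CPM in Tat-Cocaine-4OI. Summed astrocyte markers were 10452 to 12477 CPM in Control and 10518 to 12517 CPM in 4OI, 7017 to 9392 CPM in Tat and 9039 to 10829 CPM in Tat-4OI, and 6999 to 8901 CPM in Tat-Cocaine and 8943 to 13691 CPM in Tat-Cocaine-4OI. Summed neuronal markers were 2732 to 4210 CPM in Control and 3064 to 3446 CPM in 4OI. They were 1530 to 2808 CPM in Tat and 3143 to 3754 CPM in Tat-4OI, and 2366 to 3040 CPM in Tat-Cocaine and 1584 to 3199 CPM in Tat-Cocaine-4OI. Over the 48 libraries, which share their treatments, the r of Bag3 was 0.456 with the astrocyte sum and -0.348 with the microglial sum, and that of Hspd1 was 0.306 and -0.667. With the neuronal sum the r was -0.105 for Bag3 and 0.415 for Hspd1. The part of these marker shifts in the 4OI results was not tested. The paper also counted microglia by Iba1 staining. It reports more of them with 4OI in control and Tat cultures and fewer in Tat-Cocaine cultures, the last not significant. Whether cell number or RNA per cell moved the microglial sums was not tested.

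Hsp90aa1 fell with Tat in all 5 backgrounds in which Tat was compared with the matching culture without it. These 5 comparisons use different libraries. It stood at 98.5, 85.5 and 97.5 CPM in Control and at 73.4, 65.2 and 74.5 CPM in Tat libraries. It stood at 97.0, 86.0 and 92.3 CPM in Senicapoc and at 60.4, 63.2 and 61.3 CPM in Tat-Senicapoc libraries. No library with Tat reached one without it in either pair. Libraries did not overlap for 33 and 34.2% of all genes in these pairs. The log2 fold change of Hsp90aa1 was -0.40 ± 0.09 for Tat against Control (limma, FDR 0.00113), -0.57 ± 0.09 under Senicapoc (FDR 2.69e-05), -0.39 ± 0.09 under Tazemetostat (FDR 0.0021), -0.29 ± 0.09 under 4OI (FDR 0.0442) and -0.25 ± 0.09 under Amlexanox (FDR 0.0237). The call under 4OI was lost without 4OI replicate 1 or 3 or Tat-4OI replicate 2 (FDR up to 0.388), and that under Amlexanox without Amlexanox replicate 1 or 3 or Tat-Amlexanox replicate 2 or 3 (FDR up to 0.0967). In fits to the groups compared alone, the call under Senicapoc remained and the other 4 were lost (FDR 0.0505 to 0.187). In a mean over the 5 backgrounds, added after the values were seen, Hsp90aa1 fell by 0.38 (SE 0.04, FDR 7.61e-10). The astrocyte sum was lower in Tat than in Control libraries (7017 to 9392 beside 10452 to 12477 CPM), and the microglial sum was 1019 to 1830 CPM in Tat and 629 to 1083 CPM in Control libraries. Over the 48 libraries the r of Hsp90aa1 was -0.682 with the microglial and 0.595 with the astrocyte sum, and the part of the cell mixture in this fall was not tested.

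Of the 10 genes, 1 was called for Tat against Control, where 21.3% of all genes were, and it was the fall of Hsp90aa1. That share was 11.5% without Tat replicate 2. For Tat-Cocaine against Control 2 were called, beside 14.9% of all genes. Under 4OI 2 were called for Tat, beside 5.18%, under Amlexanox 2, beside 39.6%, under Tazemetostat 1, beside 16.1%, and under Senicapoc 1, beside 16% of all genes. With 1 library left out these 4 shares fell to as little as 1.46% (without Tat-4OI replicate 2), 18.7% (without Amlexanox replicate 3), 6.43% (without Tat-Tazemetostat replicate 2) and 8% (without Senicapoc replicate 1). In the mean over 5 backgrounds 2 were called, beside 56.5%, Hsp90aa1 and Hspb1. The second gene under Amlexanox was Bag3. It stood at 39.5, 26.5 and 21.5 CPM in Amlexanox and at 40.6, 42.4 and 40.6 CPM in Tat-Amlexanox libraries, a log2 fold change of 0.54 ± 0.18 (limma, FDR 0.0168), which was lost without Amlexanox replicate 2 or 3 or Tat-Amlexanox replicate 2 (FDR up to 0.166). Amlexanox replicate 1 lay within the range of the Control libraries.

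Hspb1 (HSP27), a small heat shock protein that holds unfolded chains and is abundant in reactive astrocytes, varied among its own replicates by a median CV of 19.5% over the groups, beside 3.12% for Hspd1. Hspb1 had 98.2, 118 and 67.2 CPM in Control, 102, 130 and 156 CPM in Tat and 176, 180 and 119 CPM in Tat-Cocaine libraries. It had 68.6, 67.1 and 45.1 CPM in 4OI, 137, 159 and 195 CPM in Tat-4OI and 230, 229 and 244 CPM in Tat-Cocaine-4OI libraries. The lowest and the highest group of all 16 were thus both groups with 4OI. Against the matching culture without 4OI, however, Hspb1 was not called in Control, Tat or Tat-Cocaine cultures. Libraries overlapped in Control and Tat cultures, and did not in Tat-Cocaine cultures, as for 20.6% of all genes. The log2 fold change of Hspb1 was 0.75 ± 0.25 for Tat-Cocaine against Control (limma, FDR 0.0349), which was lost without Control replicate 1 or 3 or Tat-Cocaine replicate 1 or 2 (FDR up to 0.208). It was 1.44 ± 0.25 for Tat-4OI against 4OI (FDR 0.000326). For Tat against Control it was 0.46 ± 0.25 (FDR 0.175). The difference between these Tat effects, which is also that between the 4OI effects, was 0.98 ± 0.35 and not called (FDR 0.235).

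**Figure D3:**
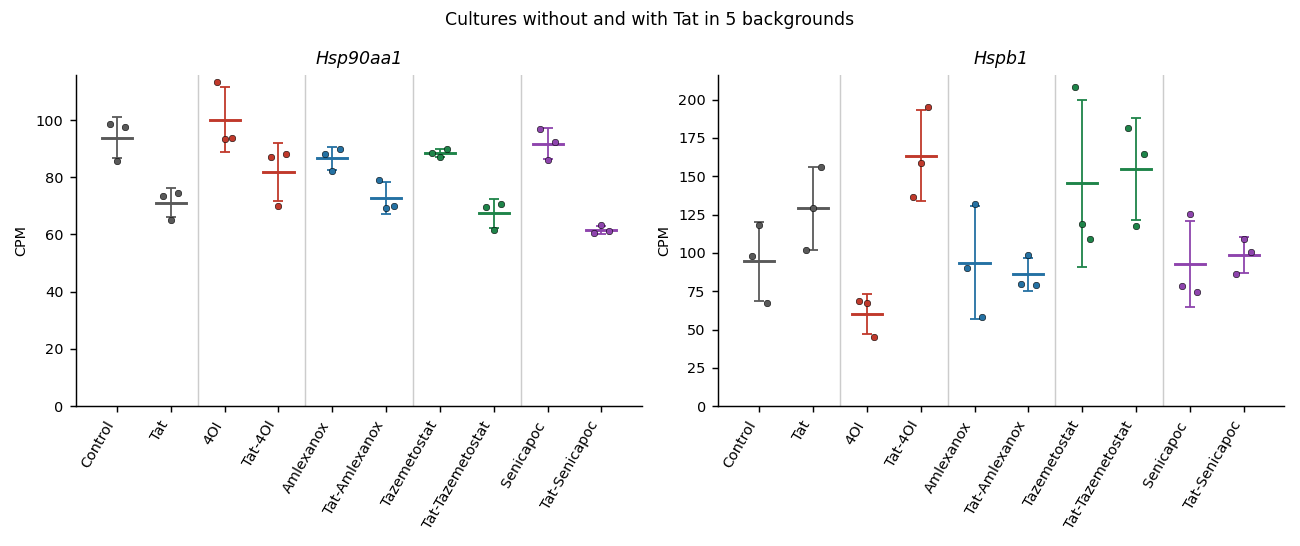
CPM of Hsp90aa1 and Hspb1 (vertical axes, starting at 0) in the 5 backgrounds in which cultures without and with Tat can be paired. Points are libraries, bars means and whiskers SD (n = 3). Hsp90aa1 is lower with Tat in each pair, and Hspb1 is most clearly higher in Tat-4OI (137 to 195 CPM) than in 4OI (45.1 to 68.6 CPM).

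Hspa5 (BiP), the HSP70 of the ER, which holds the sensors of the unfolded protein response in check, was highest in the cultures with Tazemetostat. Its values were 445, 536 and 630 CPM with Tat-Cocaine and 885, 1148 and 851 CPM with Tat-Cocaine-Tazemetostat. They were 586, 629 and 476 CPM with Tat and 717, 1150 and 652 CPM with Tat-Tazemetostat. They were 418, 675 and 518 CPM in Control and 810, 692 and 637 CPM with Tazemetostat alone. The libraries did not overlap in Tat-Cocaine cultures, as for 47.7% of all genes, or in Tat cultures, as for 8.6%. They overlapped in Control. The log2 fold change of Hspa5 was 0.84 ± 0.25 in Tat-Cocaine cultures (limma, FDR 0.0154), 0.54 ± 0.25 in Tat cultures (FDR 0.891) and 0.43 ± 0.25 in Control (FDR 0.999), and in the mean over the 3, added after the values were seen, 0.60 ± 0.14 (FDR 0.00993). The call in Tat-Cocaine cultures was lost without Tat-Cocaine replicate 1 (FDR 0.097), Tat-Cocaine replicate 2 (FDR 0.0581) or Tat-Cocaine-Tazemetostat replicate 2 (FDR 0.0977). The library with replicate number 2 held the highest Hspa5 in 14 of 16 groups, but not in Tat-Cocaine. This was not particular to Hspa5, since replicate 2 held the highest Hspa1b and the lowest Hsp90aa1 in 12 of 16 groups each. With the replicate number as a block the FDR of Hspa5 in Tat-Cocaine cultures was 0.018 (limma). The pairing check does not allow the block in this comparison (r as low as -0.226).

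In Tat-Cocaine-Tazemetostat against Tat-Cocaine 3 of 10 genes were called, beside 28.7% of all genes. That share was 1.1% without Tat-Cocaine-Tazemetostat replicate 2. When the replicate left out was number 1, 2 or 3 of Tat-Cocaine, it was 1.65, 4.82 and 36.9%. The others were Dnajb1 (0.22 ± 0.06, limma FDR 0.0119) and Hspa8, the constitutive HSP70 (0.26 ± 0.08, FDR 0.0232). Hspa8 had 994, 886 and 1098 CPM with Tat-Cocaine and 1141, 1257 and 1161 CPM with Tat-Cocaine-Tazemetostat, and its difference was 0.04 after quantile normalization (FDR 0.733). Both calls were lost without Tat-Cocaine replicate 1 or 2 or Tat-Cocaine-Tazemetostat replicate 2 (FDR up to 0.158). In the mean over the 3 backgrounds 2 were called, Hspa5 and Dnajb1, beside 11.4% of all genes (2.59 to 20.4% with 1 library left out, the ends being without Tat-Tazemetostat replicate 2 and replicate 3), and Dnajb1 was lost without Tat-Cocaine replicate 2 (FDR 0.0513). Tazemetostat called 0 of 10 genes against Control and 0 of 10 against Tat, where 0% of all genes were called and 1 and 2 of the 10 passed an unadjusted p of 0.05.

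Of the other ER chaperones and regulators of the unfolded protein response, 13 of 22 tested were higher and 0 lower in Tat-Cocaine-Tazemetostat against Tat-Cocaine, where 15.2% of all genes were higher. The 13 became 0 without Tat-Cocaine-Tazemetostat replicate 2 or Tat-Cocaine replicate 1. They became 2 when Tat-Cocaine replicate 2 was left out, and were 10 to 13 without any other library of the pair. Their median log2 fold change was 0.39, and it was 0.15 in both other backgrounds, where 0 were called. The median over all genes was 0.02 in the first of these comparisons. Sdf2l1 rose by 1.61 (limma, FDR 0.0108), from 21.7 to 67.6 CPM, and P4hb, a disulfide isomerase, by 0.74 (FDR 0.0241), and both calls were lost when any 1 of the 3 libraries just named was left out (FDR up to 0.133). Over the 48 libraries the genes whose log2 values were most like those of Hspa5 were Sec13 (Pearson r 0.914), Manf (0.908), Hsp90b1 (0.874), Lrrc59 (0.866) and AABR07056495.1 (0.866). The libraries share their treatments, and these r are a description. Tat-Cocaine-Tazemetostat libraries had 1573 to 2609 CPM of summed microglial markers and 1082 to 1629 CPM of neuronal markers, and Tat-Cocaine libraries 650 to 1103 and 2366 to 3040 CPM. Across the 48 libraries the r of Hspa5 with the microglial sum was 0.698. The part of the cell mixture in the rise of Hspa5 was not tested.

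**Figure D4:**
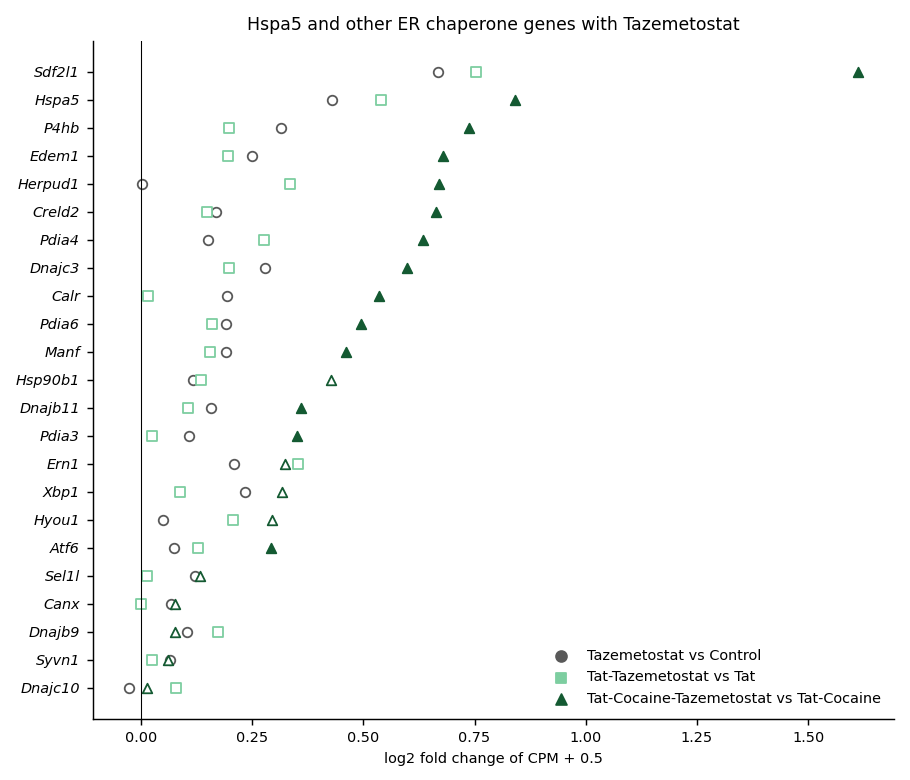
Log2 fold change of CPM + 0.5 (horizontal axis) of Hspa5 and 22 other ER chaperone genes with Tazemetostat in Control (circles), Tat (squares) and Tat-Cocaine cultures (triangles). Filled symbols passed FDR 0.05, which 0 did in Control and Tat cultures. In Tat-Cocaine cultures Hspa5 (0.84) stands second to Sdf2l1 (1.61).

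Hsph1, the HSP110 that acts as an exchange factor for HSP70, was called in 0 of the comparisons. It stood at 173, 184 and 228 CPM in Control, at 182, 155 and 109 CPM in Cocaine, at 176, 139 and 151 CPM in Tat and at 141, 143 and 176 CPM in Tat-Cocaine libraries, with overlap in each. Its log2 difference was -0.34 ± 0.13 for Tat-Cocaine against Control (limma, FDR 0.0668), and FDR 0.0477 with the replicate number as a block, which the pairing check allows in this comparison. Cocaine replicate 3, the library rich in oligodendrocyte markers, held the lowest value of Hsph1. For Cocaine against Control 0 of 10 genes were called, beside 0.201% of all genes, and 1 passed an unadjusted p of 0.05. Without Cocaine replicate 3 the count was also 0, and without Cocaine replicate 1 it was 1, Hsph1 (-0.57, limma FDR 0.00413), where 10.8% of all genes were called. For Tat-Cocaine against Tat 0 of 10 were called, beside 0.0189% of all genes, with 1 at an unadjusted p under 0.05. For cocaine added to Tat over 5 backgrounds the count was 0, beside 4.55%, with 2 unadjusted.

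Of the 10 genes 0 were called in a single background when Amlexanox or Senicapoc was added. For Amlexanox 0 of 10 were called against Control, beside 11.4% of all genes, 0 against Tat, beside 0.837%, and 0 against Tat-Cocaine, beside 0.925% (8.29% without Tat-Cocaine replicate 3), with 1, 3 and 2 at an unadjusted p under 0.05. Dnajb1 lay above all matching libraries without Amlexanox in both cultures with Tat (limma, FDR 0.0727 and 0.0737). Its values were 79.4 to 80.6 CPM in Tat-Amlexanox and 78.7 to 84.2 CPM in Tat-Cocaine-Amlexanox. Libraries did not overlap for 18 and 22.1% of all genes in these comparisons. The same Tat and Tat-Cocaine libraries serve the 4OI and Tazemetostat comparisons, in which the differences of Dnajb1 were also above 0. In the mean over 3 backgrounds 2 were called for Amlexanox, beside 7.99% of all genes, the rise of Dnajb1 (0.16 ± 0.03, limma FDR 0.00443) and a fall of Hspb1 (-0.45 ± 0.14, FDR 0.0444), of which the second was lost without replicate 1 or 3 of each group with Amlexanox, replicate 1 or 2 of Control or Tat-Cocaine, or replicate 2 or 3 of Tat (FDR up to 0.134). With Amlexanox, Hspb1 was 0.57 lower on the log2 scale in Tat and 0.72 lower in Tat-Cocaine cultures, without overlap (limma, FDR 0.314 and 0.13). Without Tat, Hspb1 ranged from 58.4 to 132 CPM over Amlexanox libraries and from 67.2 to 118 CPM over Control libraries, with overlap. The means of these groups were 93.4 and 94.6 CPM. Among other small heat shock proteins 4 of 6 were lower and 0 higher in Amlexanox against Control, beside 7.6% of all genes lower. They were 3 of 6 without Amlexanox replicate 3 and 4 of 6 without any other library of the pair, while the share of all genes called moved from 11.4% to 1.01% without Amlexanox replicate 3, to 2.62% without Control replicate 3 and to 18.9% without Amlexanox replicate 1. Cryab (αB-crystallin) fell by 1.72 (limma, FDR 3.46e-05), from 83.7 to 25.8 CPM. The astrocyte sum was 5787 to 13606 CPM in Amlexanox libraries, with 5 of 8 astrocyte markers called lower, and its part in these falls was not tested. For Senicapoc 0 of 10 were called against Control, beside 0% of all genes, 0 against Tat, beside 0.409%, and 0 against Tat-Cocaine, beside 0.0441%, with 0, 3 and 1 at an unadjusted p under 0.05. In the mean over 3 backgrounds the count was 0 for Senicapoc, beside 1.16% of all genes, with 2 unadjusted.

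**Figure D5:**
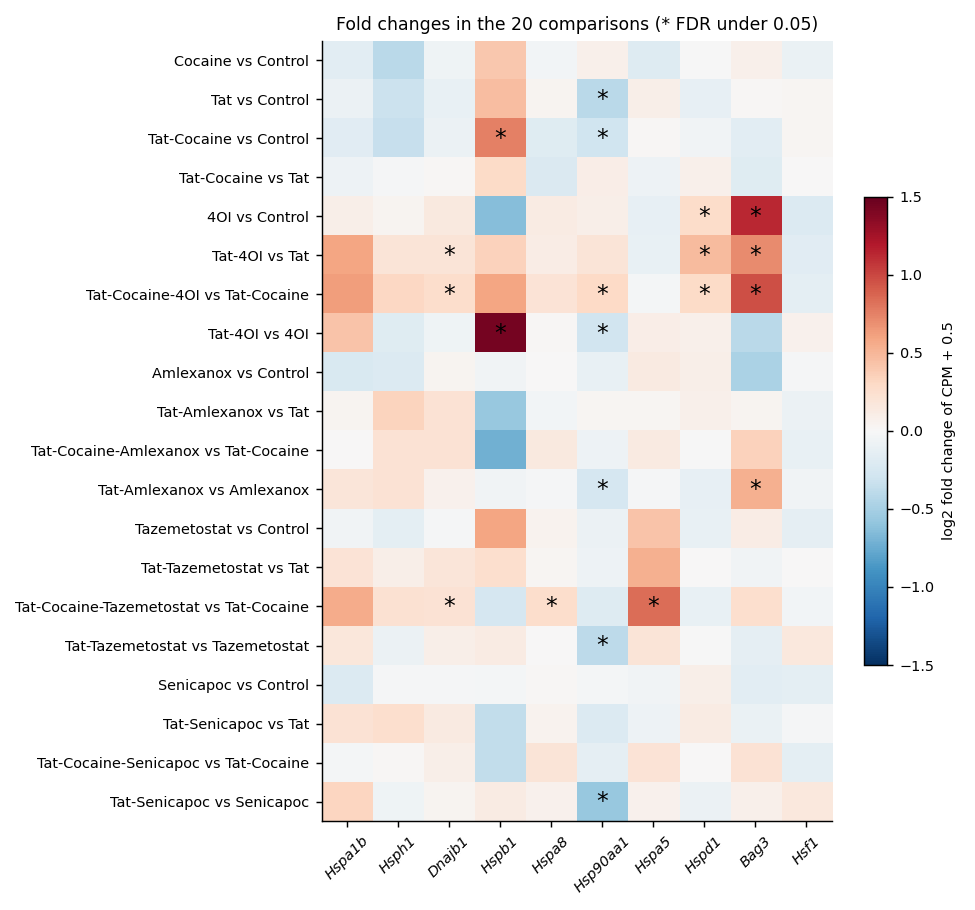
Log2 fold change of CPM + 0.5 (colour, red higher in the first group) of the 10 genes (columns) in 20 comparisons (rows). Stars mark FDR under 0.05. The stars lie mainly on Bag3 and Hspd1 in the comparisons with 4OI and on Hsp90aa1 in those with Tat.

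Neighbours in the order of the 16 groups mostly differed by less than their spread. Of the 15 gaps between neighbouring group means, 3 exceeded the larger SD for each of Hspb1, Bag3 and Hspd1, 1 for Hsp90aa1 and Hspa5, and 0 for Hspa1b, Hsph1, Dnajb1, Hspa8 and Hsf1. For Bag3 the order began with 4OI (87.1 ± 8.10 CPM), Tat-Cocaine-4OI (69.6 ± 3.25) and Tat-4OI (65.6 ± 3.64) and ended with Amlexanox (29.2 ± 9.28). For Hspd1 it began with Tat-4OI (281 ± 8.02 CPM), 4OI (266 ± 8.51) and Tat-Cocaine-4OI (260.2 ± 25.8) and ended with Tat-Cocaine-Tazemetostat (197 ± 2.93). Hsf1 kept within 22.5 to 31.2 CPM and Dnajb1 within 65.8 to 92.4 CPM in all 48 libraries. Over the 48 libraries the r between members ran from -0.477 (Hsp90aa1 with Hspa5) to 0.589 (Hspd1 with Bag3). The difference of a compound's effect between backgrounds was called for 0 of the 10 genes in each of 8 such contrasts, and 0 to 3 of the 10 passed an unadjusted p of 0.05. Of all genes 0.497% were called for 4OI and 1.84% for Amlexanox between Tat and Control, 0.0315% for Senicapoc between Tat-Cocaine and Tat, and 0% in the other 5 contrasts.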

How the data were processed

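RNA-seq of 48 libraries in 16 groups of 3 was used, with groups and replicate numbers from the labels and 0 libraries left out. The authors made strand-specific polyA libraries, aligned reads with STAR and counted reads, by their account unique ones, with featureCounts. The methods name build Rnor_6.0, whereas the submitters' processing notes name mRatBN7.2 and hg38, so no positions of the files are given. The signal the authors deposited is CPM after TMM scaling in edgeR. Between 85.0 and 87.3% of values were whole reads within 0.02 read, so count tests were not run, and the planned test for scaled values was used. A further 196 deposited columns, the authors' group means and 36 comparisons (fold changes, p-values, FDR), were not used.

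Genes that reached 0.5 CPM in 3 or more libraries were tested as log2(CPM + 0.5) with limma 3.58.1 in R 4.3.3 (trend, 1 mean per group, Benjamini-Hochberg), after a check on simulated data. Alternatives were pseudocounts, filters, scalings, variance models, libraries in the fit, a fold threshold, a replicate block and leaving out each library. The named genes come from the 10 members, the 3 largest rises and falls called in other chaperone lists, and the 5 genes most like Hspa5. Hspe1 was added as the partner of HSP60. Likeness was also computed for Hspa1b, Hspa8 and Hsf1, with a highest r of 0.736, 0.754 and 0.595, and those genes are not named. Members and lists were chosen with earlier results of these data known. Motifs were searched in RefSeq promoters (GRCr8) in Python 3.11.15. Replicate numbers paired the libraries (each r over 0.1) in 6 of 20 comparisons, and replicate pairs differed by more than counting error (chi-square per degree of freedom 5.86 to 130.1).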

Additional observations from a re-analysis of the deposited data

How the results depend on the processing

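No called value changed sign under any alternative run. The replicate block moved no count of called genes by over 1.5 times: the count was 3 beside 2 for Tat-Cocaine against Control and 7 for 4OI over 3 backgrounds, and the 1 call it changed was Hsph1 in Tat-Cocaine against Control. With a log2 fold change of at least 1 as well, 1 gene was called for 4OI against Control and for Tat-4OI against 4OI, and 0 for Tat and Tat-Cocaine against Control, Tat-4OI against Tat, Tat-Cocaine-4OI and Tat-Cocaine-Tazemetostat against Tat-Cocaine, Tat under Amlexanox, Tazemetostat and Senicapoc, and the means over backgrounds of 4OI, Amlexanox, Tazemetostat and Tat. In fits to the groups compared alone the count was 0 for Tat and Tat-Cocaine against Control and for Tat under Amlexanox and Tazemetostat, and 1 for 4OI against Control, Tat-Cocaine-4OI and Tat-Cocaine-Tazemetostat against Tat-Cocaine, and Amlexanox and Tazemetostat over 3 backgrounds. These fits have fewer libraries behind the spread. In the fit to 21 libraries it was 1 for Tat-Cocaine and 4OI against Control and 2 for Tat-Cocaine-4OI against Tat-Cocaine. Median-ratio scaling and quantile normalization gave 3 for Tat against Control and 1 for Tat-4OI against 4OI, and quantile normalization 4 for Tat under Amlexanox. Without a filter the count was 1 for Tat-Cocaine against Control, Tat-4OI against 4OI and Amlexanox over 3 backgrounds, and without a trend 1 for Tat-4OI against 4OI. The cause of these shifts was not tested.

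Leaving out 1 library gave counts of 0 to 1 for Cocaine against Control (1 without Cocaine replicate 1, beside 10.8% of all genes), 1 to 2 for Tat against Control (2 without Tat replicate 1), 0 to 2 for Tat-Cocaine against Control, 2 to 2 for 4OI against Control, 2 to 4 for Tat-4OI against Tat, 2 to 3 for Tat-Cocaine-4OI against Tat-Cocaine (2 without Tat-Cocaine-4OI replicate 2) and 1 to 2 for Tat-4OI against 4OI. It gave 0 to 1 for Amlexanox against Control and for the difference of its effect between Tat and Control (1 without Control replicate 1 or Amlexanox replicate 1, where 15.4 and 18.9% of all genes were called against Control), 0 to 2 for Tat-Cocaine-Amlexanox against Tat-Cocaine (2 without Tat-Cocaine replicate 3, where 8.29% of all genes were called), 0 to 2 for Tat under Amlexanox, 0 to 4 for Tat-Cocaine-Tazemetostat against Tat-Cocaine, and 1 to 1 for Tat under Tazemetostat and Senicapoc. Over backgrounds it gave 4 to 8 for 4OI (4 without Tat-4OI replicate 2), 1 to 2 for Amlexanox, 1 to 3 for Tazemetostat (1 without Tat-Cocaine replicate 2) and 2 to 3 for Tat. Quantile normalization moved the share of higher calls among all genes from 68.5 to 54.6% for Tat against Control and from 39.2 to 49.98% for Tat-4OI against Tat. Hspa1b, at 18 to 56.5 reads, is the gene whose depth limits precision most.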
